A study of Homo sapiens with 4 samples.

Results

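Matrix proteases and their inhibitors were followed as a set of 9 genes taken by name from the expression tables, which list 39323 genes. They are the matrix metalloproteinases MMP1, MMP2, MMP9 and MMP14, the tissue inhibitors TIMP1, TIMP2 and TIMP3, the urokinase-type plasminogen activator PLAU and its receptor PLAUR. The measurements are RNA-seq libraries of RD and JR1 cells, established lines of Fusion-Negative Rhabdomyosarcoma, a tumour with features of developing skeletal muscle. Each line was infected with a lentivirus that carried a hairpin RNA against SKP2, the substrate receptor of an SCF ubiquitin ligase (shSKP2, the hairpin called SKP2.2), or a non-targeting hairpin (shSCR), and was then selected with puromycin. All 4 libraries, 1 for each line and hairpin, thus come from infected cells of a single line grown in serum. In such bulk RNA, fewer cells of a kind and less RNA per cell cannot be told apart. With 1 library per group no change within a line has a replicate check, and values are given without errors or p-values. A model of the hairpin over both lines together was not fitted.

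These genes act together at the cell surface. Metalloproteinases are made as inactive precursors that cut collagen, gelatin and other matrix proteins once activated, and TIMP proteins bind their active site. TIMP2 also has an activating role, because it bridges MMP14 on the membrane to the precursor of MMP2, which a second MMP14 molecule then cleaves. Urokinase bound to PLAUR converts plasminogen into plasmin, a broad protease. In skeletal muscle these enzymes take part in the migration and fusion of myoblasts, and in sarcomas they have been studied for invasion.

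Values are in TPM, a measure of transcript abundance scaled for transcript length and for the library, so that the levels of different genes can be compared within a library. TPM keep no read counts, and the depth of the libraries is unknown. SKP2 itself went from 92.8 TPM with shSCR to 7.40 TPM with shSKP2 in RD, while JR1 had 46.5 and 2.72 TPM. Short structural RNAs took between 50.1% and 64.9% of the TPM, with the larger share in the shSKP2 library of each line, and 75.0% of the tested genes in RD and 68.9% in JR1 were lower with shSKP2. The 12985 tested genes, those with a mean of at least 1 TPM, had a median log2 change of -0.27 (RD) and -0.21 (JR1). Each change is log2 of TPM + 1 with shSKP2 over TPM + 1 with shSCR, which understates the change of low genes. It is also given relative to these medians and without the short structural RNA genes. On that last scale the tested genes are the 14733 that passed the same filter after the removal. Shares of tested genes on that scale are over these 14733, and their medians were 0.10 and 0.03. A gene is said to rise or fall only where its log2 change reached 1 in size, a 2-fold difference. Of 8 markers of skeletal muscle lineage, 6 had at least 1 TPM in every library, among them MYOD1, MYOG and DES, while MYF5 was listed at 0 in all 4. The 8 summed to 412 TPM with shSCR and 572.5 TPM with shSKP2 in RD, and to 555 and 779 TPM in JR1, and CHRNA1, a subunit of the acetylcholine receptor of muscle, carried the largest part. Within the list PAX7, a factor of muscle stem cells, fell in both lines (-1.43 in each), and DES went from 51.3 to 36.0 TPM in JR1. The part of these differences in the results that follow was not tested. Markers of immune cells summed to between 3.01 and 3.38 TPM, and those of endothelial cells to between 3.93 and 6.77 TPM, with TEK the highest and KDR listed at 0. Epithelial markers summed to between 84.0 and 209 TPM, nearly all from the keratin gene KRT18, while EPCAM did not pass 0.160 TPM. Fibroblast markers summed to between 590 and 1472 TPM, from COL1A1, COL3A1 and THY1, while FAP was listed at 0 and PDGFRA did not pass 0.060 TPM.

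The members covered a wide range of levels, and part of their order differed between the lines. PLAU was the highest member in every library, at 293 and 243 TPM in RD and at 354 and 273 TPM in JR1 (shSCR first in each pair). TIMP1, TIMP2, PLAUR and MMP14 followed, with all of their values between 34.6 and 164 TPM. PLAUR was below MMP14 in both RD libraries and above it in both JR1 libraries. MMP2 had between 0.640 and 5.05 TPM, and TIMP3 between 0.40 and 33.3 TPM. MMP2 was above TIMP3 in RD and below it in JR1. MMP1, an interstitial collagenase, was listed at 0 in both RD libraries and at 0.030 TPM in both JR1 libraries. MMP9, a gelatinase, was listed at 0 in both shSCR libraries and at 0.020 TPM in both shSKP2 libraries. These 2 genes did not reach the filter on low values, and no change is given for them. The 7 members that did are those of the counts and medians that follow.

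**Figure D1:**
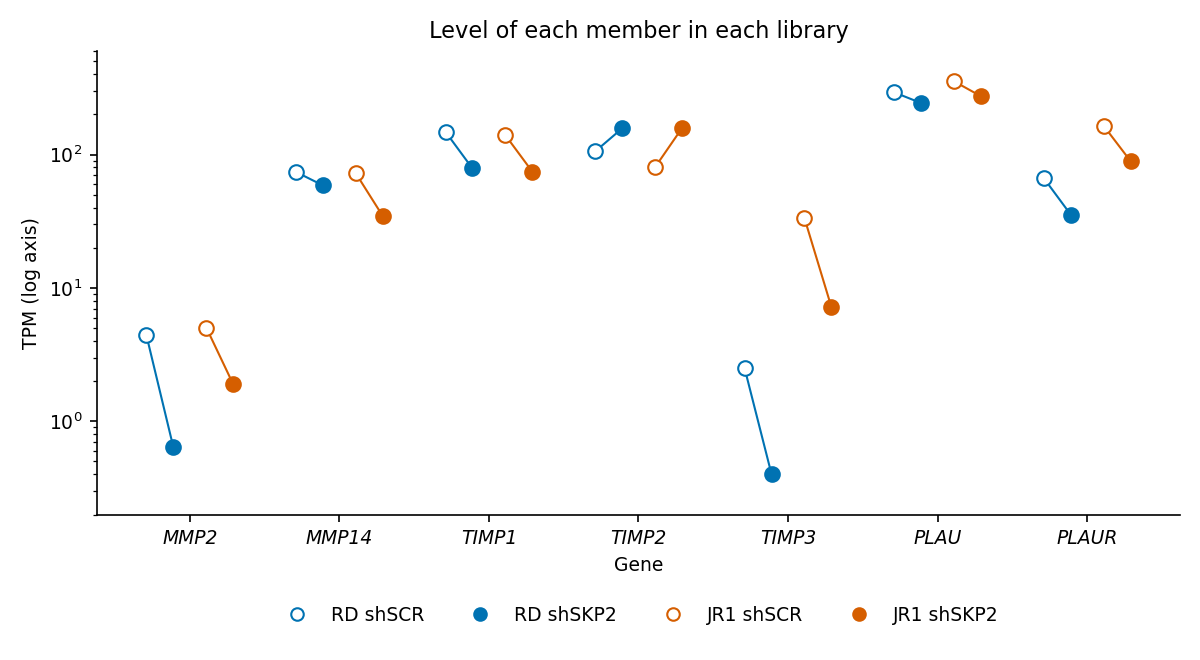
TPM on a log axis of the 7 members with a mean of at least 1 TPM, with 1 point per library, open for shSCR and filled for shSKP2, in blue for RD and orange for JR1. TIMP2 is the only one of the 7 whose filled point is above the open one in both lines, while MMP2 and TIMP3 show the steepest lines downwards in RD.

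With the TPM as deposited, 2 of the 7 members fell in RD (MMP2 and TIMP3), where 7.37% of all tested genes fell, and 3 fell in JR1 (MMP2, MMP14 and TIMP3), where 9.05% did. MMP2 and TIMP3 fell in both lines, as did 4.79% of the tested genes. 0 members rose, against 1.08% of the tested genes in RD and 1.78% in JR1. The median change of the 7 was -0.89 in RD and -0.90 in JR1. In each line 6 of the 7 were lower, where 75.0% (RD) and 68.9% (JR1) of all tested genes were. With MMP1 and MMP9 included, the 9 members had medians of -0.33 (RD) and -0.87 (JR1). Without the short structural RNA genes, 2 members fell in RD (background 3.41%) and TIMP3 alone fell in JR1 (6.73%), so that 1 member fell in both lines (2.40%). On that scale 0 members rose in RD (3.75%), and TIMP2 rose in JR1 (4.70%). The medians were then -0.50 in RD and -0.61 in JR1. On that scale 4 of the 7 were lower in RD and 6 in JR1, beside 40.8% and 47.4% of the tested genes.

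**Figure D2:**
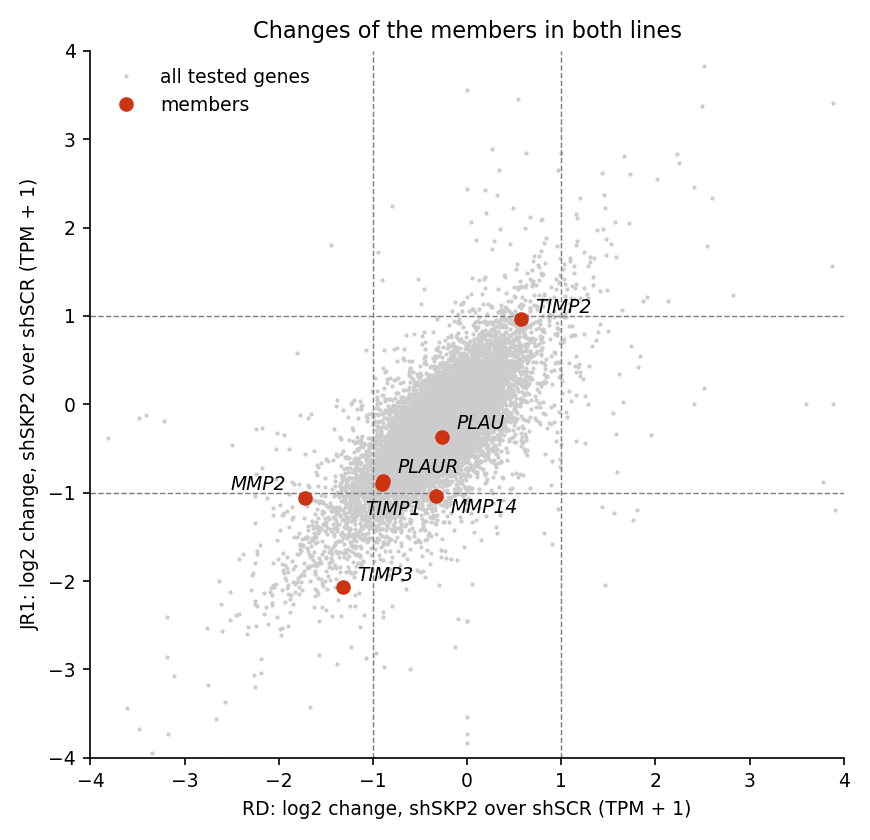
Log2 change in RD (horizontal) and JR1 (vertical) of the 7 members in red over all tested genes in grey, with dashed lines at a 2-fold change and 47 tested genes lying beyond the axes at 4. MMP2 and TIMP3 are in the corner below -1 in both lines, TIMP2 is above 0 in both, and TIMP1 and PLAUR almost coincide near -0.9.

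MMP2, or gelatinase A, degrades denatured collagen and the collagen of basement membranes, and lies on chromosome 16 (55478830 to 55506691, GRCh38). Its level was 4.42 TPM in RD shSCR, 0.640 TPM in RD shSKP2, 5.05 TPM in JR1 shSCR and 1.90 TPM in JR1 shSKP2. The shSCR libraries of the lines were thus close, and both shSKP2 libraries were below them. The log2 change of MMP2 was -1.72 (RD) and -1.06 (JR1). With 0.1 TPM added in place of 1, a setting that matters at this level, it was -2.61 and -1.36. The fall in JR1 ended just short of the limit without the short structural RNA genes (-0.99) and lay at -0.85 once centred on the median change, while the fall in RD was at least 1.45 on every scaling.

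MMP14, the membrane-anchored collagenase that activates MMP2, lies on chromosome 14 (22836585 to 22847758). It had 74.0 TPM in RD shSCR, 58.7 TPM in RD shSKP2, 72.3 TPM in JR1 shSCR and 34.6 TPM in JR1 shSKP2. The lines had nearly the same level with shSCR, and JR1 shSKP2 was the low library. Its log2 change was -1.04 in JR1 and -0.33 in RD. The difference between these changes, 0.71, was not tested, as each change rests on 1 library per hairpin. Without the short structural RNA genes the change in JR1 no longer reached the limit (-0.77), and that in RD turned to 0.07. The 3 genes whose pattern over the 4 libraries was nearest to that of MMP14, by the distance between log2 values centred on their mean, were ZNF90, WWC1 and CYB561A3. For MMP2 they were LOXL4, which encodes an enzyme that cross-links collagen, MEG3 and PLXND1. LOXL4 went in RD from 12.9 to 3.21 TPM and in JR1 from 13.7 to 5.91 TPM, with changes of -1.72 and -1.09.

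Of the inhibitors, TIMP1 was lower and TIMP2 higher with shSKP2 in both lines. TIMP1, a secreted inhibitor of most metalloproteinases, had 148 TPM in RD shSCR, 78.6 TPM in RD shSKP2, 140 TPM in JR1 shSCR and 74.5 TPM in JR1 shSKP2. The level with shSKP2 was 53.2% of that with shSCR in RD and 53.4% in JR1. Its log2 change of -0.90 in each line did not reach the limit for a fall. The change stayed below 0 on all scalings, at -0.51 in RD and -0.61 in JR1 without the short structural RNA genes. LRP5, PLCD1 and ABCB8 had the nearest patterns, and LRP5, a co-receptor for WNT ligands, went in RD from 32.3 to 17.1 TPM and in JR1 from 29.9 to 16 TPM.

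TIMP2, the inhibitor that also takes part in the activation of MMP2, had 105 TPM in RD shSCR, 157 TPM in RD shSKP2, 80.1 TPM in JR1 shSCR and 157 TPM in JR1 shSKP2. Both shSKP2 libraries were above both shSCR libraries, and they differed from each other by under 1 TPM. Its log2 changes were 0.57 (RD) and 0.96 (JR1), the latter just under the limit for a rise, while the median gene was lower. Centred on the median changes it was 0.84 and 1.18, and without the short structural RNA genes 0.97 and 1.26. DOP1A, SRP14 and SOCS7 had the nearest patterns, with changes between 0.49 and 0.55 in RD and between 0.90 and 1.00 in JR1.

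TIMP3, which binds to the matrix and inhibits ADAM proteases as well as metalloproteinases, differed most between the lines. It had 2.49 TPM in RD shSCR, 0.40 TPM in RD shSKP2, 33.3 TPM in JR1 shSCR and 7.18 TPM in JR1 shSKP2. The JR1 level with shSCR was 13.4 times that of RD, and the lower JR1 library was still above both RD libraries. TIMP3 fell by 1.32 on the log2 scale in RD and by 2.07 in JR1, and it fell on all scalings tried, by at least 1.05 in RD and 1.85 in JR1. The RD value with shSKP2 is low, and with 0.1 TPM added in place of 1 the change was -2.37 in RD against -2.20 in JR1, so the order of the lines depended on this choice. The nearest patterns were those of the collagen genes COL5A3 and COL15A1, at log2 distances of 0.41 and 0.54. These are looser matches than those of the other members, whose nearest genes lay at no more than 0.27. COL15A1 did not fall in RD (-0.82). COL5A3 went in RD from 2.09 to 0.160 TPM and in JR1 from 23.1 to 7.56 TPM, and COL15A1 from 2.14 to 0.780 TPM and from 25.3 to 6.21 TPM.

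The TPM of the 3 inhibitors summed to 256 with shSCR and 236 with shSKP2 in RD, and to 253 and 239 in JR1. Without the short structural RNA genes the order turned, with 513 and 626 in RD and 590 and 680.4 in JR1, so the direction of the sum depends on the scaling. TIMP1 was 57.8% of the sum in RD shSCR and 33.3% in RD shSKP2, and 55.2% and 31.2% in JR1. TIMP2 took 41.2% in RD shSCR and 66.5% in RD shSKP2, and 31.7% and 65.8% in JR1. TIMP2 was thus the most abundant inhibitor transcript in both shSKP2 libraries and TIMP1 in both shSCR libraries. TIMP3 went from 0.973% to 0.170% in RD and from 13.2% to 3.01% in JR1. Such shares and ratios within a library do not depend on the part of the TPM taken by structural RNAs. They have no error, as there is 1 library for each.

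PLAU, on chromosome 10 (73909182 to 73917497), had changes of -0.27 (RD) and -0.37 (JR1), as deposited the smallest of the 7. The former equals the median of the tested genes, and it turned to 0.14 without the short structural RNA genes. In JR1 it was -0.16 relative to the median and -0.08 in the other scaling. CERS5, VPS13C and SARM1 had the nearest patterns. PLAUR, the membrane-anchored urokinase receptor on chromosome 19 (43646095 to 43670197), had 66.5 TPM in RD shSCR, 35.5 TPM in RD shSKP2, 164 TPM in JR1 shSCR and 89.3 TPM in JR1 shSKP2. Both JR1 libraries were above both RD libraries, by 2.47 times with shSCR and 2.52 times with shSKP2. The level with shSKP2 was 53.3% of that with shSCR in RD and 54.3% in JR1, a log2 change of -0.89 and -0.87. It was -0.50 and -0.59 without the short structural RNA genes. The nearest patterns were those of COL6A1, MGLL and PTPRN, and COL6A1, a collagen VI chain, went in RD from 67.9 to 34.2 TPM and in JR1 from 169 to 87.5 TPM.

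**Figure D3:**
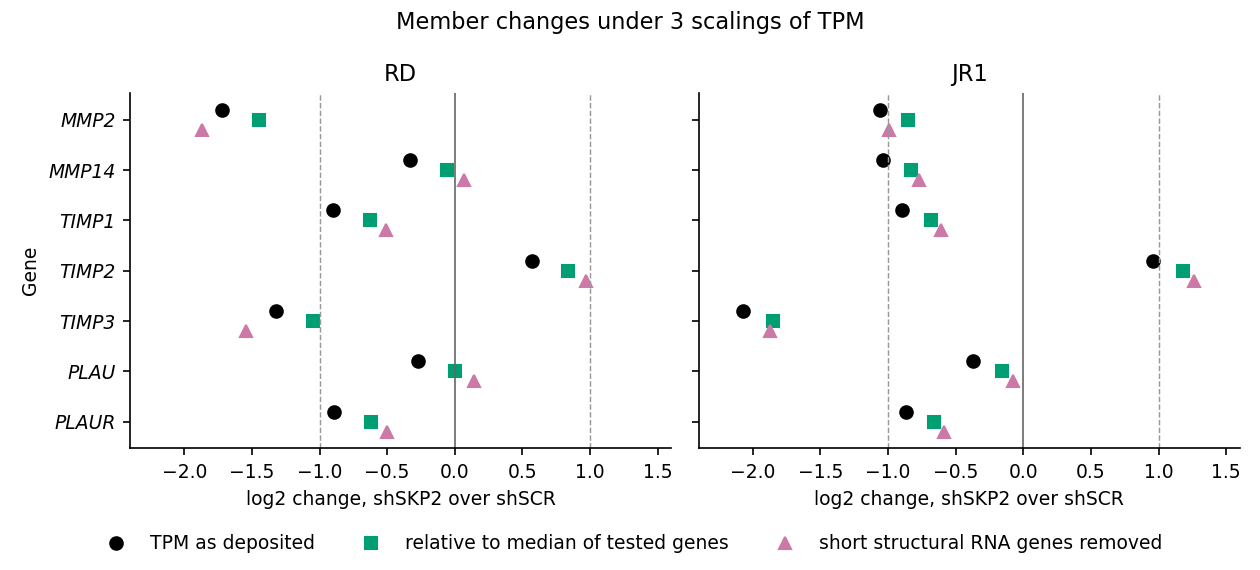
Log2 change of each of the 7 members (rows) in RD and JR1 with the TPM as deposited (circles), centred on the median change (squares) and without the short structural RNA genes (triangles), with dashed lines at a 2-fold change. TIMP2 is above 0 and MMP2, TIMP1, TIMP3 and PLAUR are below 0 at all 3 marks in both lines, while MMP14 and PLAU cross 0 in RD.

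RefSeq promoter windows, from 250 bases before to 50 after a start site in GRCh38.p14, were at hand for 5 members, with 6 windows in all. MMP1, MMP2, MMP9 and TIMP2 had none. Printed 5′ to 3′ are those of TIMP1, TIMP3 and PLAUR, the members with a window that were lower in both lines on all scalings. Capitals mark the AP-1 word TGACTCA or its reverse complement TGAGTCA and the GC box GGGCGG or its reverse complement CCGCCC. TIMP1 is chrX:47582186-47582485 on the plus strand, TIMP3 chr22:32801455-32801754 on the plus strand and PLAUR chr19:43670120-43670419 on the minus strand.
TIMP1: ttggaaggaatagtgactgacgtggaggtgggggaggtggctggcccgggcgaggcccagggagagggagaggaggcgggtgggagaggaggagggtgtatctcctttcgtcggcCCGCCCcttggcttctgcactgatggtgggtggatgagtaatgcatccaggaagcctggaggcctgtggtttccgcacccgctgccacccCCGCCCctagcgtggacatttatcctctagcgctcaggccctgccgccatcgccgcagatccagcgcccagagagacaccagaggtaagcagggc
TIMP3: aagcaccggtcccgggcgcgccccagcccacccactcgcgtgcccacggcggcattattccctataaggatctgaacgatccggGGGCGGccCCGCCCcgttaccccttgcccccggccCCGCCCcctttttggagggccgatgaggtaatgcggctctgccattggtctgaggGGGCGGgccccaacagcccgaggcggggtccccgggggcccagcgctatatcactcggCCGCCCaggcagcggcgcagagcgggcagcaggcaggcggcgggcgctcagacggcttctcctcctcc
PLAUR: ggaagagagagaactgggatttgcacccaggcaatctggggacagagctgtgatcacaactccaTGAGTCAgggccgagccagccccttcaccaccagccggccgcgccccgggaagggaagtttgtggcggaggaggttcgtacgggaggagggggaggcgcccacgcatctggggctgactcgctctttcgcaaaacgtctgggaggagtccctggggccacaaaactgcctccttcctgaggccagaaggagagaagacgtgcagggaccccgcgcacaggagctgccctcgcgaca

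The AP-1 word occurred in 1 of the 6 windows, that of PLAUR, with its first base at position -186 from the start site, and in 4.95% of all 35116 windows of the table. The GC box occurred in 4 of the 6, with 5 copies in TIMP3 and 2 in TIMP1, and in 45.0% of all windows. The E-box word CAGCTG, a site of the kind bound by MYOD, and the TATA word TATAAA or its reverse complement TTTATA occurred in 0 of the 6, against 17.9% and 11.5% of all windows. 0 of the words found overlapped. The GC content was 72.7% in the TIMP3 window, 65.0% in that of TIMP1 and 64.0% in that of PLAUR, where the median of all windows was 58.7%. A word found is a match of letters and not a binding site.

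The lines were also compared with each other. With shSCR, TIMP3 and PLAUR were at least 2-fold apart, both lower in RD, with log2 values of RD over JR1 of -3.30 and -1.29, and 9.94% of all tested genes were as far apart. With shSKP2 the same 2 members were, at -2.55 and -1.31, against 8.09% of the tested genes. The other 5 members lay between -0.27 and 0.39 with shSCR. With shSKP2 MMP14 was higher in RD (0.75) and MMP2 lower (-0.82), and TIMP2 was level. The value of MMP2 moved to -1.25 without the short structural RNA genes and to -1.43 with 0.1 TPM added.

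Ratios between members show how the pieces of each system stood to one another. The ratio of MMP2 to TIMP2 was 0.0419 in RD shSCR and 0.00408 in RD shSKP2, and 0.0631 and 0.0121 in JR1. It was thus 10.3 times lower with shSKP2 in RD and 5.22 times lower in JR1, with MMP2 falling while TIMP2 was higher. With 1 TPM added to both terms, which weighs on the low level of MMP2, the log2 change was -2.29 in RD against -3.36 without it, and -2.02 in JR1 against -2.38. The ratio of MMP14 to TIMP2 went from 0.702 to 0.374 in RD and from 0.903 to 0.220 in JR1, a log2 change of -0.91 and -2.04. The ratio of MMP2 to MMP14 fell by 2.45 on the log2 scale in RD, and its change was -0.35 in JR1. With 1 TPM added to both terms these were -1.40 and -0.02. The 4 metalloproteinases summed to 0.307 of the 3 inhibitors in RD shSCR and 0.252 in RD shSKP2, and to 0.306 and 0.153 in JR1. MMP14 carried most of that sum. In the urokinase system the ratio of PLAU to PLAUR went from 4.4 to 6.86 in RD and from 2.15 to 3.06 in JR1. Both were higher with shSKP2, by less than the 2-fold limit.

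**Figure D4:**
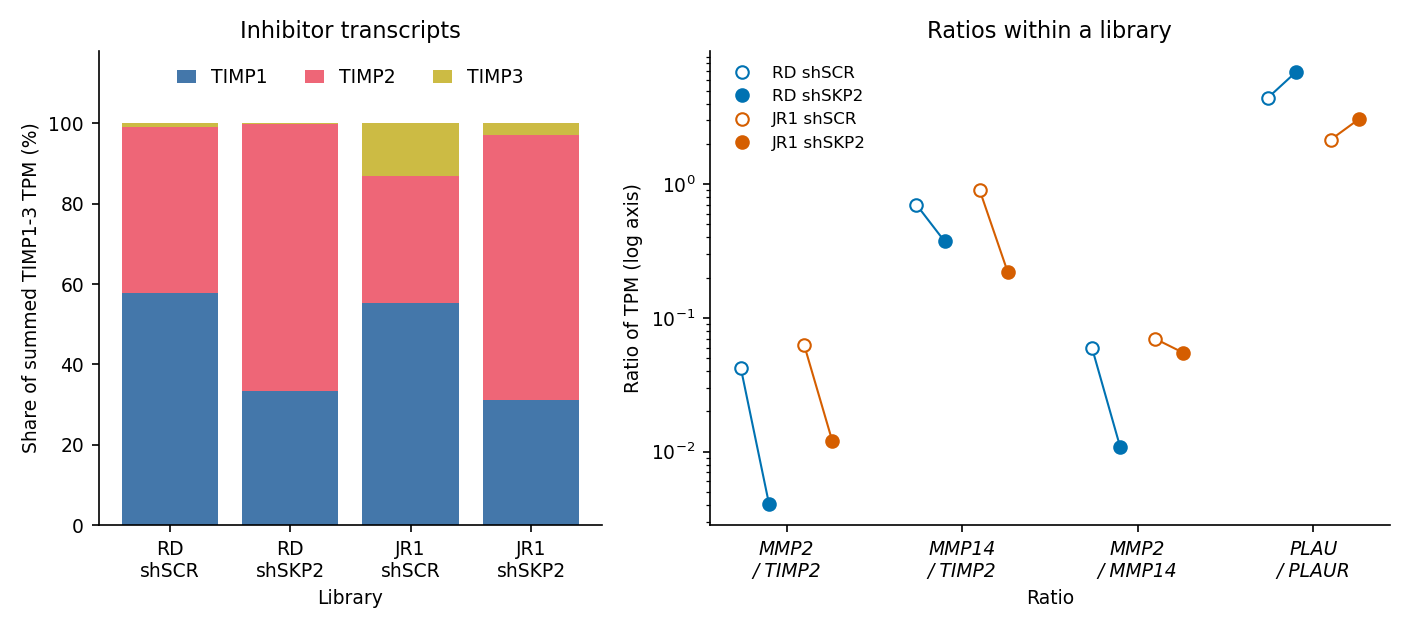
Left, bars from 0 of the share of TIMP1, TIMP2 and TIMP3 in their summed TPM, in percent, for each library. Right, ratios of TPM within a library on a log axis, open for shSCR and filled for shSKP2, where both ratios over TIMP2 are lower and the ratio of PLAU to PLAUR is higher with shSKP2 in each line.

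Other genes of the same pathways were read from lists written from general knowledge. Of 22 further metalloproteinase and inhibitor genes, 5 passed the filter, and the other 17, TIMP4 and most secreted enzymes among them, did not. MMP17 and MMP23B fell in both lines and MMP15, a membrane-anchored enzyme like MMP14, rose in both. Of all tested genes 4.79% fell in both lines, and 1.08% rose in RD and 1.78% in JR1. The share that rose in both lines was not computed. MMP15 went in RD from 1.24 to 5.24 TPM and in JR1 from 0.630 to 4.25 TPM, changes of 1.48 and 1.69, or 2.10 and 2.41 without the short structural RNA genes. MMP17 went in RD from 16.1 to 6.11 TPM and in JR1 from 13.9 to 5.07 TPM, and on that last scale its change in RD, -0.95, no longer reached the limit. MMP23B went in RD from 19.2 to 5.25 TPM and in JR1 from 16 to 3.68 TPM. It has a near-identical copy, MMP23A, which was listed at 0.710 TPM in RD shSCR and at 0 in the other libraries, so the split of reads between them is uncertain. Over the 5 genes the median change was -0.64 (RD) and -0.75 (JR1), or -0.29 and -0.55 over the 7 that passed without the short structural RNA genes.

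Of 14 further genes of plasminogen activation, 9 were tested. 0 rose in either line, where 1.08% (RD) and 1.78% (JR1) of all tested genes did. 0 fell in RD and PLAT alone fell in JR1, beside 7.37% and 9.05% of all tested genes. PLAT, the tissue-type activator, went in RD from 98.3 to 52.0 TPM and in JR1 from 72 to 24.9 TPM, with changes of -0.91 and -1.49, and the difference between the lines was not tested. It was the lowest of the group in JR1 and stayed past the limit there without the short structural RNA genes (-1.23). S100A10, the partner of annexin A2 in a plasminogen-binding complex, was lowest in RD, where it had 251 TPM with shSCR and 125 TPM with shSKP2, which with 1 TPM added to each is just short of a 2-fold difference. In JR1 it had 247 and 167 TPM. The highest values were -0.33 for ANXA2, a plasminogen-binding annexin with pseudogene copies, in RD and 0.07 for SERPINE2, an inhibitor of urokinase, in JR1. The median of the 9 was -0.46 (RD) and -0.51 (JR1), which became -0.08 and -0.24 without the short structural RNA genes. PLG, which encodes plasminogen, had at most 0.060 TPM.

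Among 17 tested ADAM and ADAMTS proteases (of 30), 1 rose and 1 fell in RD (1.08% and 7.37% of all tested genes) and 2 fell in JR1 (9.05%), with medians of -0.21 and -0.45. Without the short structural RNA genes 20 were tested, of which 3 rose and 0 fell in RD and 1 fell in JR1, and the medians were 0.04 and -0.26. On that scale 3.75% of all tested genes rose and 3.41% fell in RD, and 6.73% fell in JR1. ADAMTS5, an aggrecanase, rose from 10.5 to 25.5 TPM in RD and went from 8.37 to 11.1 TPM in JR1, and ADAMTS7 fell in both lines (-1.07 and -1.33), although in RD its change was -0.78 without the short structural RNA genes. Of 11 tested cathepsins and cystatins (of 16), 1 fell in RD and 2 fell in JR1, beside 7.37% and 9.05% of all tested genes. CTSS, a lysosomal protease, was the only one to fall in both lines, where 4.79% of all tested genes did. The shSCR and shSKP2 libraries had 5.26 and 1.90 TPM of CTSS for RD, and 5.93 and 1.42 TPM for JR1. Without the short structural RNA genes CTSS was at -0.93 in RD, short of the limit. As deposited, CTSC was highest, at 0.14 in RD and 0.20 in JR1. The medians of this list were -0.47 (RD) and -0.32 (JR1), and over the 13 tested without the short structural RNA genes they were -0.07 and 0. Of these 13, 0 fell in RD and 1 in JR1, beside 3.41% and 6.73% of the tested genes. On that scale 0 rose in RD and 1 in JR1, beside 3.75% and 4.70%. The 1 that rose was CSTA, a cystatin, at 1.53, which had at most 1.51 TPM as deposited.

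Genes of matrix proteins, the substrates of these enzymes, made up the last group of targets. Of 24 tested matrix genes (of 26), 9 fell in RD and 12 in JR1, beside 7.37% and 9.05% of all tested genes. 0 rose, where 1.08% (RD) and 1.78% (JR1) of all tested genes did. Without the short structural RNA genes 5 fell in RD and 6 in JR1, beside 3.41% and 6.73% of the tested genes. On that scale 0 rose, against 3.75% and 4.70%. The median change of the 24 was -0.82 (RD) and -1.0 (JR1), or -0.56 and -0.73 without the short structural RNA genes. SPARC, COL1A1, COL4A2, COL5A1, COL6A2, HSPG2 and VCAN fell in both lines, as did 4.79% of all tested genes. COL1A1, COL5A1 and COL6A2 still did without the short structural RNA genes, where 2.40% of the tested genes did. COL1A1, a chain of the main fibrillar collagen, went in RD from 307 to 77.0 TPM and in JR1 from 387 to 65.8 TPM. COL6A2 went in RD from 68.5 to 16.2 TPM and in JR1 from 126 to 42.9 TPM. COL3A1 was the highest of the list in RD, with a change of 0.37, and was at -0.83 in JR1. COL1A2 was highest in JR1, at -0.15, and was listed at no more than 0.280 TPM in RD. Fibroblast markers overlap with this list, and the 8 of them summed to 1411 and 1472 TPM in RD and to 1360 and 590 TPM in JR1. COL1A1 and COL3A1 made up most of that sum, THY1 had at least 11.4 TPM, and DCN did not pass 0.060 TPM in any library. The part of another cell type in these values was not tested.

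Transcription factors of the AP-1, ETS and NF-kB families, well-known regulators of protease genes, were all measured, 18 of 18. FOS, FOSB and JUNB, subunits of AP-1, fell in both lines and on both scalings. Of all tested genes 4.79% fell in both lines as deposited and 2.40% without the short structural RNA genes. FOS went in RD from 93.5 to 24.4 TPM and in JR1 from 110 to 24.1 TPM, and FOSB from 30.5 to 5.27 TPM and from 42.8 to 6.62 TPM. JUNB went in RD from 84.3 to 26.4 TPM and in JR1 from 107 to 30.9 TPM. Other AP-1 subunits did not fall in either line, among them JUN (-0.01 in RD and -0.51 in JR1) and JUND (-0.71 and -0.07). FOSL2, another AP-1 subunit, was highest in RD (0.51) and had 0.32 in JR1. In all, 4 of the 18 fell in RD and 7 in JR1 (7.37% and 9.05% of all tested genes), with medians of -0.61 and -0.55. Without the short structural RNA genes 3 and 5 fell, beside 3.41% and 6.73% of all tested genes, and the medians were -0.23 and -0.27. Of the promoter windows printed for TIMP1, TIMP3 and PLAUR, that of PLAUR holds the AP-1 word. A role of these factors in the changes of the proteases was not tested.

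TIMP1 and TIMP3 share a feature of position. TIMP1 (chromosome X, 47582408 to 47586789) lies inside SYN1, and TIMP3 (chromosome 22, 32801705 to 32863041) inside SYN3, each on the opposite strand of a synapsin gene. SYN1 had at most 0.370 TPM and SYN3 at most 0.10 TPM in any library, far below the levels of TIMP1 and of TIMP3 in JR1. C10orf55, antisense to part of PLAU, had between 1.98 and 2.42 TPM. TIMP2 (chromosome 17, 78852977 to 78925387) contains CEP295NL, at no more than 0.520 TPM.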

How the data were processed

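RNA labelled as polyA, from RD and JR1 cells, was made into directional libraries by the authors, 1 for each line and hairpin. Per the labels, reads were aligned to GRCh38 with STAR 2.7.9a and quantified with RSEM 1.3.2. TPM deposited by the authors are rounded to 2 decimals, and they hold no counts, so depth and counting error are unknown. Libraries were grouped by their titles. TPM were used as deposited, with 1 TPM added before log2, a minimum mean of 1 TPM over the 4 libraries and a limit of 1 on the log2 scale for a change. No test was run, as no group has replicates. Ratios of TPM within a library had no pseudocount and needed 0.5 TPM in each term.

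The alternatives were centring on the median change, removal of short structural RNA genes by symbol (2599 genes) with or without RMRP, RPPH1 and transfer RNA genes, 0.1 TPM added, no filter, a minimum of 5 TPM, and a 1.5-fold limit. A planned ratio and 1 gene of a list are not reported here. The code was tested on simulated data. The members and lists were chosen with earlier results of these data known. Named are the members, SKP2, the genes of the ratios, up to 3 genes nearest to each tested member in pattern, and from each list the genes past the limit in both lines with the highest and lowest of each line. MMP23A, PLG, JUN, JUND, CSTA, the overlapping genes and the markers are named besides. Strands came from GENCODE release 44 and promoter windows from RefSeq (GRCh38.p14). Python 3.11.15, numpy 2.4.6, pandas 2.3.3 and matplotlib 3.10.9 were used.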

Additional observations from a re-analysis of the deposited data

Results flagged for a closer look

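7 tested genes that are no members, among those named and the marker lists, had changes of opposite sign in the lines, each from 1 library per hairpin, and the difference between the lines was not tested. For COL3A1, a fibrillar collagen chain, the change in RD minus that in JR1 was 1.20 (0.37 and -0.83). For COL1A2 it was 0.38, from 0.23 in RD, where it had at most 0.280 TPM, and -0.15 in JR1. For SERPINE2 it was -0.53, from -0.46 in RD and 0.07 in JR1, and for ETV1, an ETS factor, it was -0.60, from -0.19 in RD and 0.42 in JR1. Of the cell type markers, the difference was 0.64 for DES (0.14 and -0.50), 0.68 for LUM (0.29 and -0.40) and -0.34 for KRT18 (-0.32 and 0.02). LUM had at most 0.280 TPM in RD, so its change there rests on very low values. Without the short structural RNA genes the signs still differed for COL3A1 (0.78 and -0.54), SERPINE2 (-0.06 and 0.36), DES (0.54 and -0.22) and LUM (0.66 and -0.22), but not for COL1A2 (0.56 and 0.10), ETV1 (0.21 and 0.72) or KRT18 (0.08 and 0.30).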

How the results depend on the processing

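No member past the 2-fold limit changed sign under any of the alternatives. The number of members that fell in RD, 2, became 1 with a minimum of 5 TPM, which drops MMP2, and 4 with a 1.5-fold limit. In JR1 the 3 falls became 1 after centring and without the short structural RNA genes, 2 in the wider removal and with a minimum of 5 TPM, and 5 with the 1.5-fold limit. The 0 rises in JR1 became 1, that of TIMP2, after centring, in both removals of structural RNA genes and with the 1.5-fold limit. Shares of all tested genes were computed only as deposited and in the narrower removal, both at the 2-fold limit. The counts under the other settings thus have no background beside them and are not read as a result about the members. The median change in RD was -0.62 after centring, -0.50 and -0.48 in the narrower and wider removal, -0.91 with 0.1 TPM added, -0.33 without a filter and -0.61 with 5 TPM. In JR1 these medians were -0.68, -0.61, -0.64, -0.91, -0.87 and -0.89. The changes of PLAU and MMP14 in RD, and small differences between the lines for TIMP1, MMP14 and PLAUR, lost or changed their sign with the scaling, as did that of TIMP3 with 0.1 TPM added (0.75 to -0.17). The cause of these shifts was not tested. Removing genes cannot change a ratio within a library. With 1 TPM added, the 10 changes of ratios kept their sign and side of the limit, but that of MMP2 to MMP14 in JR1 was near 0 (-0.02). The labels give no replicate numbers to pair, and a fit over both lines with the line as a block, which leaves 1 residual degree of freedom, was not run. The unknown depth limits mainly MMP2 and TIMP3 in RD, which are near or under 1 TPM with shSKP2.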
